A study of Mus musculus with 43 samples.

Results

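The regions described here are stretches of the genome whose ATAC-seq peak calls separated TGFB1-treated from vehicle-treated mouse intestinal organoids that had not been irradiated. They came from 6 of the 18 ATAC-seq libraries, within a series of 43 samples. The peaks of those 6 lists on chromosomes 1 to 19 merged into 43849 regions. A region was called gained when all 3 TGFB1 libraries and none of the 3 vehicle libraries had a peak in it, and lost in the reverse case. There were 812 gained regions, 1.85% of all, and 196 lost regions, 0.447% of all. Sex chromosomes were left out because the list of TGFB1 replicate 2 names only 19 chromosomes and holds 0 peaks on X.

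All organoids were primary intestinal cultures of wild-type C57BL/6 mice. The non-irradiated groups (D7 non-IR) received vehicle or TGFB1 at 2 ng/mL on day 6 for 24 h and were collected on day 7, 3 libraries each. The irradiated groups used for comparison received 4 Gy on day 4, then vehicle or TGFB1 on the same schedule, and were collected on day 7 (D7 IR) or day 11 (D11), again 3 libraries each. Bulk RNA-seq libraries exist for the same groups. Organoids hold epithelium without the mesenchyme, immune cells and vessels of the gut wall. The labels do not say whether replicates came from separate cultures or mice, so p-values measure only the spread between these libraries.

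TGFB1 is a secreted ligand that binds a receptor kinase pair, TGFBR2 and TGFBR1, which phosphorylate SMAD2 and SMAD3. With SMAD4 these enter the nucleus and bind DNA beside other transcription factors, among them AP-1 and RUNX proteins. ATAC-seq uses the Tn5 transposase to insert adapters where DNA is not packed in nucleosomes, so its peaks mark accessible promoters and enhancers. In the intestine, factors such as CDX2, HNF4A and GATA4 hold enhancers of the absorptive programme open.

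The deposited lists give each peak as a 601-bp window with a score, the authors' −log10 of the MACS2 q-value. A higher score means stronger evidence for a peak in that library, and it depends on that library's depth, which is unknown here. The vehicle lists held 27158, 27238 and 28308 peaks on chromosomes 1 to 19, and the TGFB1 lists held 38299, 29740 and 27451. TGFB1 replicate 1 stood above the other 5 lists. The means were 27568 ± 642 peaks for vehicle and 31830 ± 5718 for TGFB1 (SD, n = 3 each), a difference of 4262 that was not larger than the spread (exact permutation test, two-sided, p = 0.2, smallest possible 0.1). Without TGFB1 replicate 1 the TGFB1 mean was 28595.5 peaks.

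On average, lists of the same group were more alike than lists of different groups. The Jaccard index, the regions 2 lists share divided by the regions either holds, averaged 0.685 within groups and 0.650 between them. The 3 vehicle pairs lay close together at 0.704 to 0.708, and the TGFB1 pairs had 0.643, 0.662 and 0.691. Pairs of a TGFB1 and a vehicle library ran from 0.608 to 0.675, with TGFB1 replicate 1 in the 3 lowest. For the difference of 0.0351 the exact permutation test gave p = 0.1, which is the lowest value these group sizes can reach, so no call at 0.05 was possible.

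Most regions did not follow treatment. All 6 libraries shared 17622 regions, 40.2% of all. Another 7169 regions were found in a single TGFB1 library and no vehicle library, and 3168 in a single vehicle library and no TGFB1 library. TGFB1 replicate 1 held 5013 of those 7169 (69.9%), and 2071 of the 2223 regions (93.2%) found in 2 TGFB1 libraries and no vehicle library. Just outside the rule lay 1192 regions with a peak in all TGFB1 libraries and 1 vehicle library, and 650 with a peak in all vehicle libraries and 1 TGFB1 library. In the former, the lone vehicle peak had a median score of 5.05, 5.28 or 5.37 by replicate. In the latter, the lone TGFB1 peak had a median score of 6.33, 5.12 or 5.28, and replicate 1 supplied it in 413 of the 650.

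**Figure D1:**
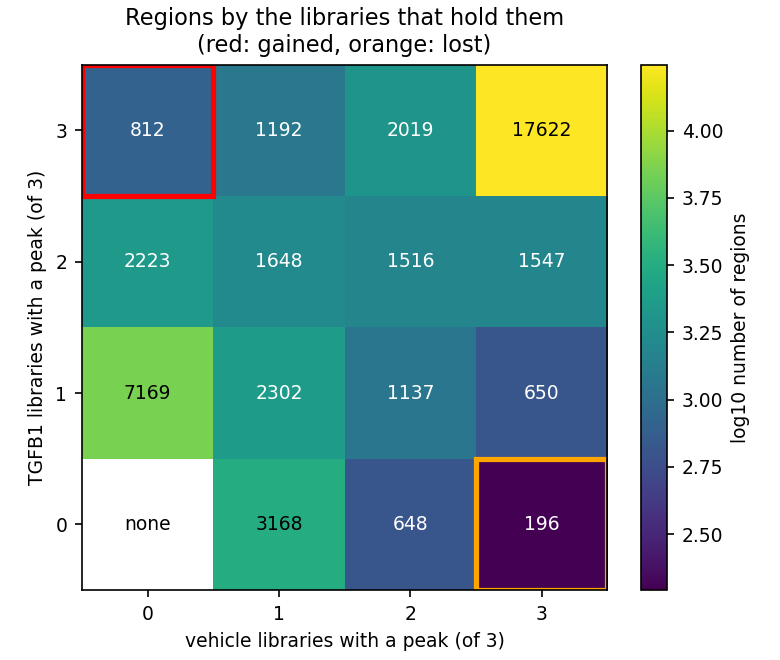
Number of merged regions by how many of the 3 vehicle libraries (horizontal axis) and of the 3 TGFB1 libraries (vertical axis) had a peak in them; colour is the log10 of the number. The 812 gained regions (red frame) and 196 lost regions (orange frame) are few beside the 17622 shared by all 6 libraries and the 7169 found in 1 TGFB1 library alone.

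The excess of gained over lost regions changed with the number of peaks taken from each list. Gained regions made up 80.6% of the gained and lost regions together. When each list was cut to its 27158 highest-scored peaks, as many as the shortest list holds, 470 regions were gained and 447 lost, a gained share of 51.3%. Of the 812 gained regions, 437 were still gained then, and of the 196 lost regions 179 were still lost. Without TGFB1 replicate 1 the counts were 969 gained and 608 lost, a gained share of 61.4%. Leaving out any library asks for agreement among fewer lists, so both counts then go up.

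**Figure D2:**
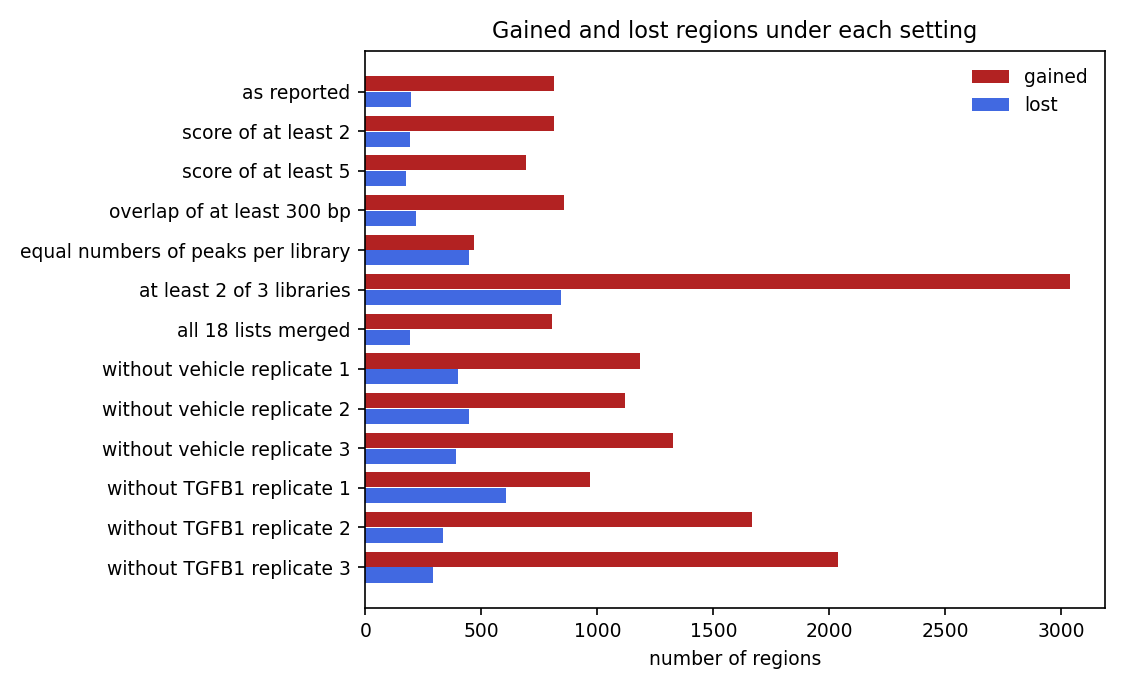
Number of gained (red) and lost (blue) regions under each way of calling them, from 812 and 196 as reported. With equal numbers of peaks per library the counts were 470 and 447, nearly the same.

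Gained and lost regions carried weak peaks. In TGFB1 replicates 1 to 3 the gained regions had median scores of 7.44, 5.83 and 5.95, against list medians of 9.62, 9.33 and 9.52. Only 28.7, 14.3 and 10.8% of them lay above the list median, with TGFB1 replicate 1 the highest. The lost regions had median scores of 5.60, 5.38 and 5.62 in the vehicle libraries, where 7.14, 9.18 and 8.16% lay above the list median. Regions shared by all 6 libraries had medians of 14.2 to 19.04 across the libraries. Weak peaks were not particular to gained and lost regions. Regions in all TGFB1 libraries and 1 vehicle library had TGFB1 medians of 8.23, 6.12 and 6.24. Those in all vehicle libraries and 1 TGFB1 library had vehicle medians of 6.05, 6.19 and 6.30. The strongest gained peak scored 25.04 and the strongest lost peak 16.2, while shared regions reached 239.3.

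Lost regions lay closer to the shared regions, by median, than gained regions did. The median gained region was 662 bp wide and lay 22.8 kb from the nearest shared region, and 28.6% (232 regions) lay beyond 50 kb. Lost regions had a median width of 670.5 bp and a median distance of 11.4 kb; 16.8% (33 regions) lay beyond 50 kb and 26.5% lay within 5 kb. Among all 26227 regions not shared by all 6 libraries the median distance was 20.3 kb, with 25.9% beyond 50 kb and 16.97% within 5 kb. The gained medians were close to those of other variable regions; no test was made over regions. By chromosome, the gained share of regions ran from 0.955% on chromosome 8 (23 of 2408) to 2.49% on chromosome 15 (43 of 1728). Lost shares ran from 0.174% on chromosome 15 to 0.757% on chromosome 6.

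The 10 gained regions named here are those whose lowest score percentile over the 3 TGFB1 lists was highest, and the 10 lost regions were picked the same way in the vehicle lists. Their scores are what chose them and are given as a description. Presence and absence in D7 non-IR follow from the rule, so only the irradiated libraries add to the patterns below. Positions are those of the authors' files, counted from 1. Gene annotation of the files' build was not used here, so their genes are not named.

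The highest placed gained region, chr7:87898346-87899065, scored 21.9, 14.4 and 14.6 in TGFB1 replicates 1 to 3. In D7 IR it again had a peak in all TGFB1 libraries, at 4.68, 2.94 and 4.46, and in no vehicle library. By D11 all 6 libraries had it, with vehicle at 11.4, 9.60 and 8.68 and TGFB1 at 9.14, 5.68 and 2.27. Outside the libraries of the rule it was thus limited to TGFB1 in D7 IR and not at D11.

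The next region, chr7:35714855-35715499, scored 16.8, 13.3 and 14.6. It was found in all TGFB1 libraries of D7 IR (3.30, 9.47 and 9.16) and in 1 D7 IR vehicle library (2.68). At D11 it was present in all TGFB1 libraries (5.28, 12.6 and 11.7) and in no vehicle library. Among the irradiated libraries it thus had a peak in every TGFB1 library and in 1 vehicle library. It also opens a locus of 3 gained regions over 38.1 kb, chr7:35714855-35752984, which holds 1 shared region besides. Its neighbour chr7:35728469-35729095 scored 17.3, 8.42 and 4.21, and at D11 had TGFB1 scores of 10.8, 8.30 and 7.22 beside a single vehicle score of 4.84. The last of the 3, chr7:35752321-35752984, scored 6.93, 4.08 and 9.31, and at D11 11.7, 11.4 and 6.28 with TGFB1 beside 8.48 and 5.99 in 2 vehicle libraries.

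At chr6:112160445-112161123 the scores were 20.4, 18.5 and 12.2 with TGFB1. D7 IR organoids had peaks in all TGFB1 libraries (12.2, 7.73 and 8.47) and in 1 vehicle library (5.18). At D11 all 6 libraries had a peak, with TGFB1 at 27.4, 23.7 and 26.6 and vehicle at 10.8, 11.1 and 7.16, so the scores of the groups did not overlap. The D11 lists differ in length, and these scores were not tested.

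At chr15:85532855-85533465 the TGFB1 scores of 21.3, 15.1 and 13.5 were among the highest of the set, yet the region was not limited to TGFB1 elsewhere. D7 IR vehicle libraries had it at 8.00 and 4.89, and D11 scores overlapped (14.6, 18.4 and 10.3 with TGFB1; 14.4, 17.9 and 9.85 with vehicle). A contrasting case was chr6:82001951-82002559, which scored 11.4, 11.9 and 13.5. It had peaks in 2 D7 IR TGFB1 libraries (9.67 and 7.66) and 2 D11 TGFB1 libraries (7.02 and 6.74), and in no irradiated vehicle library. The other 5 were chr5:113464588-113465264, chr14:18816264-18816874, chr5:30034685-30035357, chr15:12040899-12041557 and chr1:71478790-71479459. Their TGFB1 scores ran from 10.5 to 14.0 in D7 non-IR. Of the 10 regions, 9 had peaks in more TGFB1 than vehicle libraries in D7 IR and 1 in equal numbers. At D11, 3 had more TGFB1 libraries and 7 were found in all 6. Of all regions, 16.96% had more TGFB1 libraries in D7 IR and 10.4% at D11, and 44.1% were found in all 6 D11 libraries.

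The highest placed lost region, chr4:83179802-83180414, scored 9.37, 10.2 and 11.8 in the vehicle libraries. At D11 it had peaks in all vehicle libraries (17.3, 14.5 and 5.31) and in no TGFB1 library, and in D7 IR in 1 vehicle library (4.65). The same held at D11 for chr10:41308248-41308934, which scored 10.2, 8.94 and 9.92 in D7 non-IR vehicle and 12.4, 9.37 and 11.0 in D11 vehicle. D7 IR gave it peaks in 2 vehicle libraries (4.65 and 8.39) and no TGFB1 library. Both regions lacked a TGFB1 peak in D7 IR and at D11.

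At chr7:52962850-52964090 vehicle scores of 9.58, 11.5 and 9.23 were matched at D11 by 10.2, 11.1 and 5.06, again with no TGFB1 peak. In D7 IR, however, it had peaks in 2 TGFB1 libraries (1.88 and 4.20) and in no vehicle library, the opposite pattern. At chr7:20147215-20148137, with vehicle scores of 9.20, 13.1 and 11.7, D7 IR gave no peak in any library and D11 gave one in all 6, at 18.2, 16.7 and 13.2 with vehicle and 10.5, 5.61 and 6.90 with TGFB1. The other 6 were chr7:96861450-96862121, chr3:157529130-157529752, chr6:149086258-149086949, chr3:21059110-21059780, chr10:20179356-20179970 and chr3:60331612-60332625. Over the 10, more vehicle than TGFB1 libraries had the peak in 6 regions in D7 IR and in 8 at D11. More TGFB1 libraries had it in 1 region in D7 IR and in 1 at D11, and the rest were equal. Of all regions, 22.5% had more vehicle libraries in D7 IR and 31.1% at D11.

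**Figure D3:**
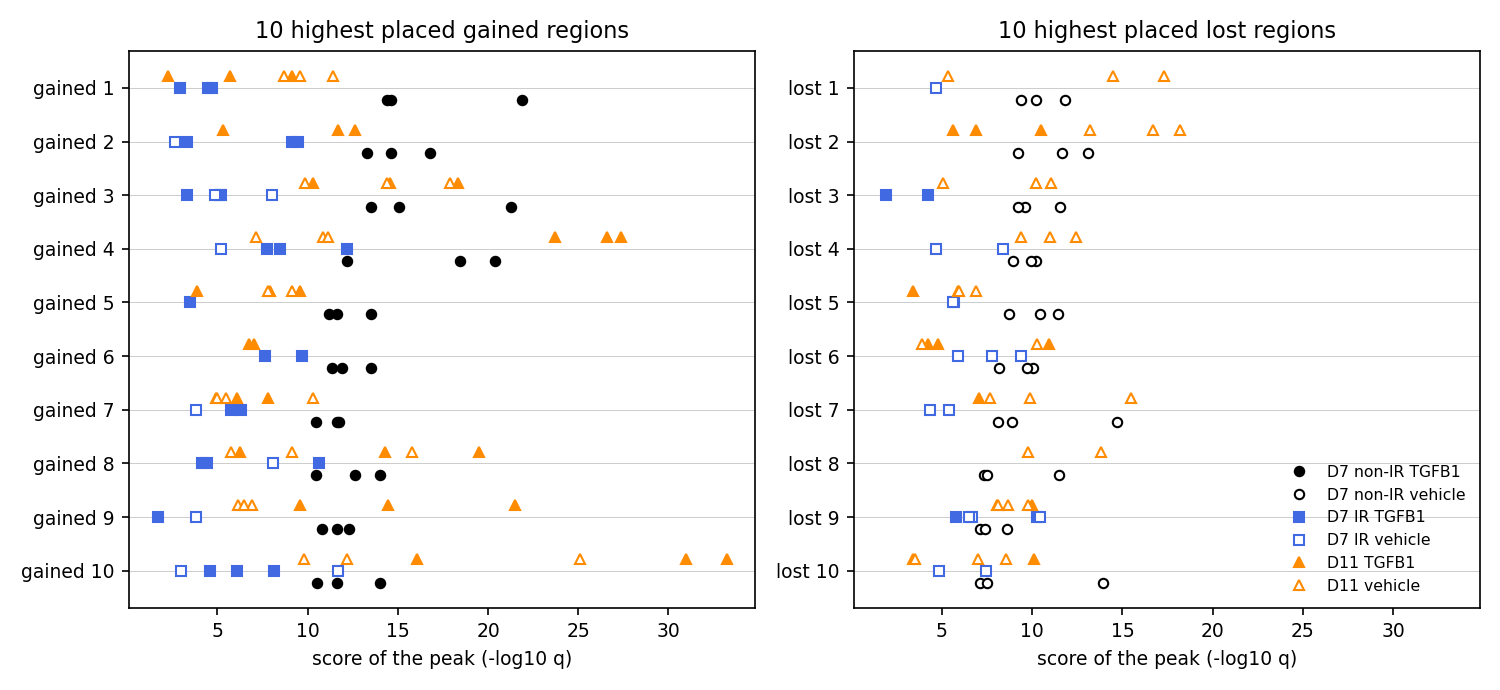
Scores (−log10 q, horizontal axis) of the 10 highest placed gained regions (left) and lost regions (right) in each library that had a peak there; filled symbols are TGFB1 and open symbols vehicle, black for D7 non-IR, blue for D7 IR and orange for D11. A missing symbol means that no peak was listed. All 10 gained regions have TGFB1 peaks in all 3 conditions. Gained regions 2 and 6 have D11 peaks with TGFB1 only, and lost regions 1, 3, 4 and 8 have D11 peaks with vehicle only.

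Gained regions rarely lay side by side. Chained at gaps of at most 50 kb, 95 of the 812 (11.7%) fell into 46 groups of 2 or more, and 3 groups held 3. Besides the chromosome 7 locus, these were chr17:31993364-32067783 (74.4 kb) and chr5:113410858-113465264 (54.4 kb). The chromosome 17 locus spanned 7 merged regions, of which 3 were gained and 0 lost or shared. Its gained region nearest the start, chr17:31993364-31994025, scored 13.2, 7.78 and 7.32, and its last, chr17:32067076-32067783, scored 14.1, 12.4 and 7.49. At D11 both had peaks in all vehicle libraries and in 2 TGFB1 libraries. The chromosome 5 locus spanned 4 merged regions, and contains chr5:113464588-113465264. Lost regions formed no group of 3, and 8 of the 196 (4.08%) lay in 4 pairs.

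The irradiated organoids gave libraries that the calls had not used. In D7 IR, 45.0, 24.3 and 24.3% of the 812 gained regions had a peak in TGFB1 replicates 1 to 3, and 15.0, 19.3 and 17.9% in the vehicle replicates. Every TGFB1 library was above every vehicle library. The means were 31.2 ± 11.9% and 17.4 ± 2.19% (SD, n = 3), a difference of 13.8 percentage points. Without D7 IR TGFB1 replicate 1, the longest D7 IR list, the difference was 6.86 points. Over all 43849 regions the D7 IR means were 46.5% with TGFB1 and 49.6% with vehicle, a difference of −3.03 points. Region by region, 352 gained regions (43.3%) had more TGFB1 than vehicle libraries and 160 (19.7%) had fewer, against 16.96% and 22.5% of all regions.

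Lost regions went the other way in D7 IR. A peak was present in 31.1, 10.7 and 9.69% of the 196 in the TGFB1 libraries and in 36.2, 31.1 and 40.3% in the vehicle libraries. TGFB1 replicate 1, which had the most peaks of the D7 IR TGFB1 lists, met the lowest vehicle library. The means were 17.2 ± 12.1% and 35.9 ± 4.601%, a difference of −18.7 points (exact permutation test, two-sided, p = 0.2). More vehicle than TGFB1 libraries held the peak in 91 lost regions (46.4%) and fewer in 25 (12.8%), against 22.5% and 16.96% of all regions.

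At D11 the lost regions kept their direction while the libraries of the 2 groups overlapped in the gained ones. Lost regions had a peak in 36.2, 36.7 and 13.3% with TGFB1 and in 89.3, 91.3 and 53.1% with vehicle. The means of 28.7 ± 13.4% and 77.9 ± 21.5% differed by −49.1 points with no overlap, against −11.1 points over all regions. For the lost regions the exact permutation test, two-sided, gave p = 0.1, again the smallest possible. Gained regions had a peak in 70.1, 75.4 and 57.4% with TGFB1 and in 69.0, 77.0 and 42.5% with vehicle. Those means, 67.6 ± 9.24% and 62.8 ± 18.05%, differed by 4.80 points with overlapping groups (exact permutation test, two-sided, p = 0.8). Taken relative to each library's share over all regions, the difference was 15.9 points, an alternative added after seeing the data. Without D11 vehicle replicate 3, the shortest D11 vehicle list, the unadjusted difference was −5.36 points. The number of peaks differed between D11 lists, from 28523 to 48078, and its part in these shares was not tested.

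**Figure D4:**
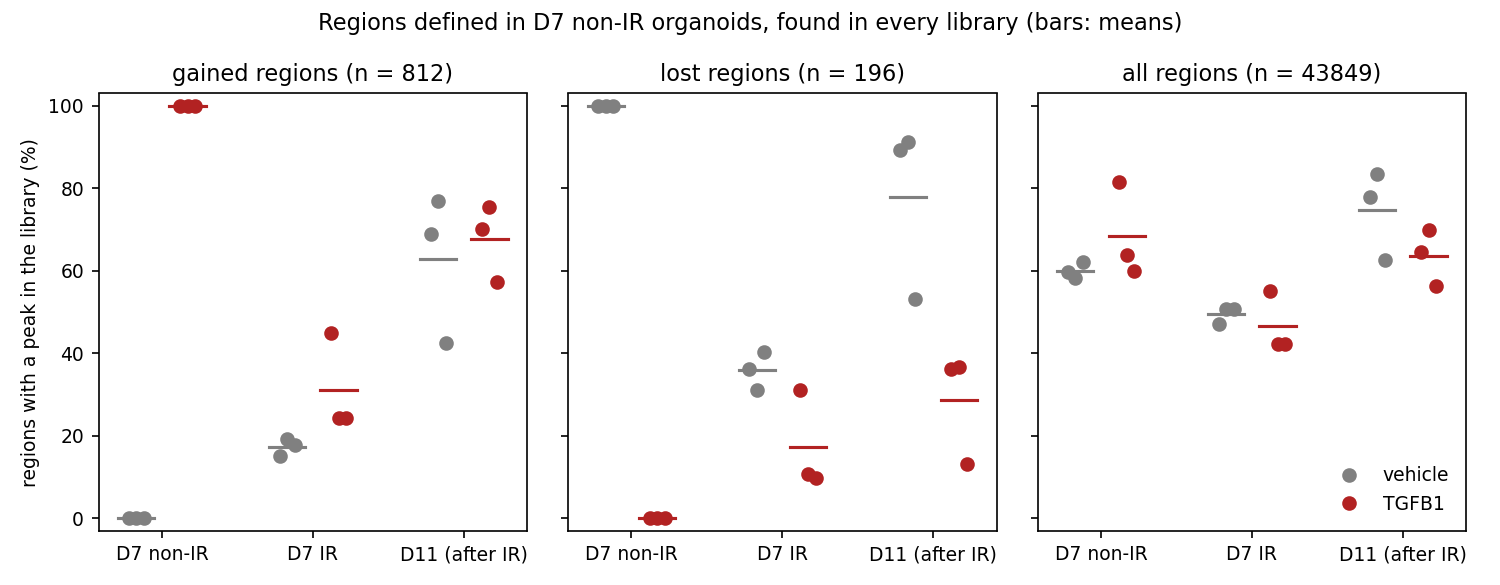
Percent of the 812 gained regions (left), the 196 lost regions (middle) and all 43849 regions (right) with a peak in each of the 18 libraries; grey is vehicle, red is TGFB1, points are libraries and bars their means. The D7 non-IR columns of the gained and lost panels are fixed by the rule; in D7 IR the gained share was 31.2% with TGFB1 and 17.4% with vehicle, and at D11 the lost share was 28.7% and 77.9%.

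The members were also split by their score place. In D7 IR it was 10.6 points for the 271 gained regions placed lowest by score, 9.51 points for the 270 in the middle and 21.2 points for the 271 placed highest. For lost regions at D11 it was −46.7, −49.2 and −51.5 points in the same order. Gained regions at D11 differed by 3.32, 5.06 and 6.03 points, with the libraries of the groups overlapping in each part.

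Single regions seldom met the full rule again. Of the 812 gained regions, 41 (5.05%) were also gained in D7 IR, where 0.983% of all regions were. Another 5 (0.616%) were lost there, against 1.64% of all regions. At D11, 50 (6.16%) were gained, against 0.764% of all regions, and 15 (1.85%) were lost, against 3.15%. A peak in all 6 D11 libraries was found in 153 (18.8%), against 44.1% of all regions. Of the 196 lost regions, 12 (6.12%) were lost in D7 IR, against 1.64% of all regions, and 39 (19.9%) at D11, against 3.15%; 0 were gained in either. No D7 IR library had a peak in 225 gained (27.7%) and 54 lost regions (27.6%), shares near the 26.2% of all regions.

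A single region, chr4:97775169-97775857, had a peak in all 9 TGFB1 libraries of the 3 conditions and in none of the 9 vehicle libraries. Its TGFB1 scores were 18.1, 10.8 and 5.89 without irradiation. They were 5.53, 11.5 and 3.94 for D7 IR, then 4.06, 5.56 and 4.53 on day 11. The reverse pattern was found in 2 regions, chr10:119435554-119436242 and chr7:86982065-86982703. Vehicle scores of the former were 10.3, 4.88 and 11.0 without irradiation, 6.32, 5.66 and 5.36 for D7 IR, and 7.43, 7.30 and 5.12 on day 11. These 3 regions were picked out for this pattern after their values were seen.

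Presence and absence leave out the regions that every library shared, so the 17622 shared regions were ranked by score within each library. A region was counted as ranked higher with TGFB1 when its mean percentile was at least 20 points above vehicle and all 3 TGFB1 ranks were above all 3 vehicle ranks. By this 655 regions (3.72%) ranked higher and 614 (3.48%) lower. With no minimum size, 7.41% ranked higher and 7.61% lower in every TGFB1 library. Because each library ranks the same regions, the number of peaks does not enter the ranks directly, but a rank says nothing of absolute accessibility.

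The region ranked highest by shift, chr3:107032627-107034000, scored 6.42, 6.48 and 7.03 with vehicle and 33.5, 17.3 and 19.9 with TGFB1. Its mean rank percentile was 58.2 points higher. It showed the same order outside the 6 libraries, with 1.76, 7.99 and 6.93 (vehicle) against 11.8, 15.9 and 14.4 (TGFB1) in D7 IR, and 10.2, 10.9 and 7.27 against 21.9, 20.6 and 14.5 at D11. The scores of the groups thus did not overlap in D7 IR or at D11. In D7 non-IR the region was chosen for ranks that lay apart. Scores depend on each library's depth, and these were not tested. At chr11:116079892-116080588, shifted by 57.5 points, the D7 non-IR scores were 7.93, 10.3 and 7.18 with vehicle and 36.0, 22.1 and 24.7 with TGFB1. At D11 its TGFB1 scores (23.2, 13.1 and 11.3) overlapped vehicle (28.5, 19.2 and 22.02) and lay mostly below. A further region, chr5:113562120-113562804, on the chromosome that carries the second locus of 3 gained regions, had a shift of 50.9 points.

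Among regions ranked lower, chr16:93615174-93616211 had the largest shift, −57.6 points. It scored 23.5, 17.5 and 20.7 with vehicle and 7.00, 7.06 and 5.71 with TGFB1. At D11 the scores were 36.8, 22.2 and 23.5 with vehicle and 9.81, 9.65 and 9.99 with TGFB1, so the groups were again apart. A neighbour on the same chromosome, chr16:93638624-93639626, shifted by −49.6 points, from 14.6, 15.3 and 29.9 with vehicle to 10.9, 5.12 and 6.40 with TGFB1. In D7 IR its scores overlapped (12.1, 9.33 and 12.0 with vehicle, 6.09, 7.27 and 10.7 with TGFB1). Its D11 scores were 32.0, 29.8 and 21.7 with vehicle and 11.3 and 9.83 in the 2 TGFB1 libraries that had a peak. Regions with larger shifts than this neighbour differed at D11. Scores overlapped at chr3:157245866-157246567 (19.3, 24.4 and 23.0 with vehicle, 26.5, 20.7 and 10.9 with TGFB1) and at chr10:125375927-125376616. They were apart at chr1:163970803-163971528 and chr3:61140014-61140634. At chr5:11867080-11867760, shifted by −49.1 points, no irradiated TGFB1 library had a peak at either day, while 2 D7 IR vehicle libraries and all D11 vehicle libraries had one.

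**Figure D5:**
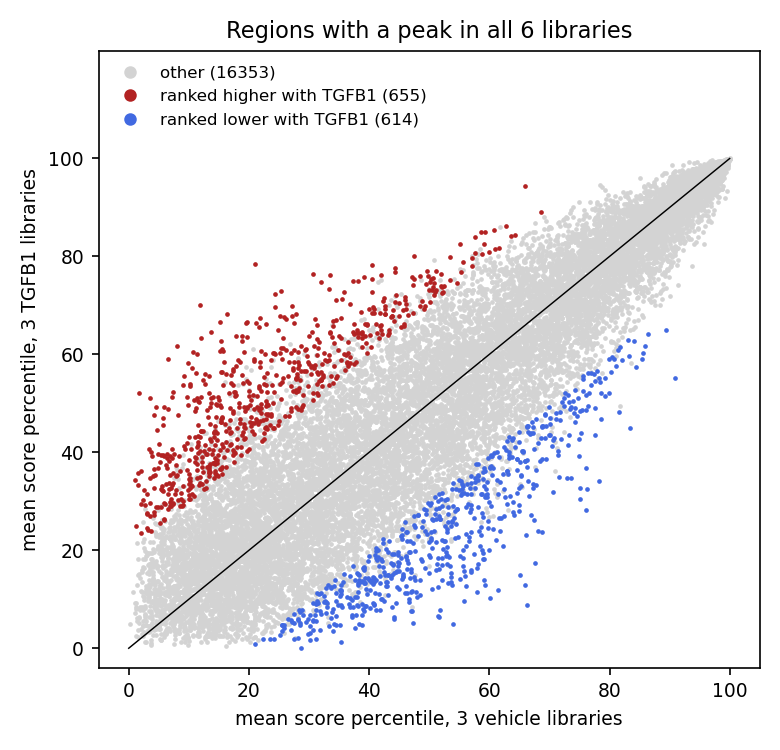
Mean score percentile of the 17622 shared regions in the 3 vehicle libraries (horizontal axis) and the 3 TGFB1 libraries (vertical axis), each point a region. The 655 regions ranked higher with TGFB1 are red, the 614 ranked lower are blue, and the line marks equal ranks.

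Neighbourhood to gained and lost regions was counted for the ranked sets, with no test. A gained region lay within 50 kb of 9.92% of the regions ranked higher, of 6.51% of those ranked lower and of 6.89% of all shared regions. A lost region lay within 50 kb of 1.37%, 2.77% and 2.14% in the same order. In the irradiated libraries the median rank shift of the higher-ranked set was 4.04 points in D7 IR and 10.5 at D11, and that of the lower-ranked set −5.81 and −7.54. Among the 345 higher-ranked regions with a peak in all D7 IR libraries, 41 (11.9%) met the rank rule there, against 7.16% of the 11599 shared regions with such peaks, and 14 met it in reverse. At D11 it was 151 of 618 (24.4%), against 7.19% of 15671, and 8 in reverse. For lower-ranked regions the figures were 50 of 332 (15.1%, against 7.22%) in D7 IR and 83 of 473 (17.5%, against 5.95%) at D11. In reverse, 15 of them met the rule in D7 IR and 23 at D11. These comparisons used the same rule of at least 20 points with groups apart, on ranks taken anew within each condition.

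The RNA libraries of the same 2 D7 non-IR groups gave the levels of genes of the TGFB pathway and of DNA-binding factors; which factors bind the gained and lost regions was not tested. RNA values are FPKM, fragments per kilobase of transcript scaled to library size, and limma was run on log2(FPKM + 1) for the 11330 genes that averaged 1 FPKM or more. Of these 3776 (33.3%) rose with TGFB1 and 3956 (34.9%) fell at an adjusted p under 0.05 in limma, so a gene's call alone sets it little apart. In bulk samples fewer cells of a type and less RNA per cell cannot be told apart.

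Feedback genes of the pathway rose. Smad7, an inhibitory SMAD, went from 3.31, 3.69 and 3.55 FPKM with vehicle to 20.3, 21.5 and 20.2 with TGFB1, a log2 change of 2.26 ± 0.053 (SE). Pmepa1, which binds SMAD2 and SMAD3 and dampens signalling, went from 4.22, 3.85 and 4.59 to 104.7, 104.0 and 98.2 FPKM, and Skil, a SMAD co-repressor, from 6.11, 6.71 and 6.44 to 37.1, 40.7 and 40.6. In each of these 3 genes the groups were far apart. Of 14 tested genes on the TGFB response list 12 rose and 2 fell, with a median log2 change of 1.15 against −0.017 over all genes tested. Tgfbi, the matrix protein gene named for its induction by TGFB, was one of the latter, from 2.66, 2.85 and 2.30 to 0.62, 0.45 and 0.76 FPKM. Of 8 ligand, receptor and SMAD genes 6 rose, including Tgfb1 itself (log2 1.42) and Smad3 (0.80), while Tgfbr1 and Smad4 did not pass the test, at −0.04 and 0.01 (limma adjusted p = 0.54 and 0.81). The calls of Id2 and Id3 on the response list were lost under at least 1 alternative.

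Several AP-1 genes, whose proteins bind many inducible enhancers, also rose. Fosl1 went from 0.78, 0.84 and 0.70 FPKM to 7.52, 7.78 and 6.95, a log2 change of 2.25 ± 0.071. Fos changed by 1.76 and Jun by 1.46, while Jund, at 0.03, did not pass the test. Of the 8 tested, 6 rose and 0 fell. Other DNA-binding factors included Runx1 (log2 1.89), Tead4 (2.09), a partner of YAP, Sox9 (1.46), Foxa1 (1.36) and Klf6 (1.66), and 9 of the 10 tested on that list rose.

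Factors of intestinal identity were divided, 5 up and 9 down of 14. Cdx2, a homeobox factor that specifies intestine, went from 141.8, 140.95 and 149.4 to 90.0, 88.2 and 93.5 FPKM. Hnf4g, a nuclear receptor of the absorptive programme, fell by 1.26 on the log2 scale, Gata4 by 0.49 and Ppara by 0.96, while Gata5 rose by 1.20. Genes of chromatin remodelling and modification had a median change of −0.04, and 2 of 11 rose and 2 fell; the calls of Hdac2 (0.10) and Ezh2 (−0.14) were lost without some single libraries. With quantile normalization Hdac2 also lost its call (0.03, limma adjusted p = 0.449) and Arid1a was called lower (limma adjusted p = 0.031). Ctcf, the insulator protein gene, fell by 0.24. The regenerative epithelium list, chosen like the others with earlier results of these data known, rose in all 15 tested of its 18 genes. Clu went from 48.5, 43.2 and 51.3 to 1806, 1765 and 1732 FPKM. Of 13 enterocyte genes 12 fell, among them Sis, which encodes the brush-border enzyme sucrase-isomaltase, by 2.63.

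Markers checked the tissue. All 8 epithelial markers, Epcam and Krt8 among them, were present, and their summed level was 5906 to 5987 FPKM with vehicle and 14314 to 14891 with TGFB1. Of 6 immune markers 1 passed the filter, and the sum of the 6 was 2.00 to 2.56 FPKM with vehicle and 1.51 to 1.77 with TGFB1. Mesenchymal markers (6 genes, 0 of them passing) summed to 0.0796 to 0.169 FPKM and 0.310 to 0.586. Endothelial markers (3 genes, 0 passing) reached at most 0.114 FPKM. Stem markers were mixed, with 3 of 8 up and 3 down. Enterocyte RNA fell in TGFB1 libraries of the same groups, made from separate samples, and the part of cell-type proportions in the gained and lost regions was not tested.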

How the data were processed

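ATAC peaks were deposited by the authors as 1 list per library. Per the labels' protocols 30000 cells were used per library, and per the file names Picard was applied, peaks were called with MACS2 at q 0.05, and regions marked BL, read as a blacklist, were subtracted. Versions (Picard 2.18.27, MACS2 2.1.0) are per the submitters' processing notes. The score deposited by the authors was read as −log10 q. The notes name mm9, GRCm39 and mm39 with no role. The peaks run past the last GRCm38 gene on chromosome 1 by 1884497 bp, and of the named builds only mm9 has a chromosome 1 that long, so positions were read as mm9. The gene and promoter tables used here are GRCm38.p6. Gene links, motifs and sequences were therefore not analysed here.

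Peaks were merged with an overlap of at least 1 bp in Python 3.11.15 (pandas 2.3.3), and the calling was checked on simulated lists. FPKM were deposited by the authors as 1 table of 23951 genes per condition, and 0 of its columns were left unmapped; the tools behind it are not given a role in the sources used here. log2(FPKM + 1) was tested with limma 3.58.1 (trend, robust, R 4.3.3), two-sided, Benjamini-Hochberg adjusted, for genes averaging 1 FPKM or more. The read depth is unknown. Regions, gene lists and tests were chosen with earlier results of these data known. Named regions are the 10 gained and 10 lost with the highest lowest score percentile, groups of at least 3 within 50 kb, and, for ranks, some of those with the largest shifts. Alternatives varied the score threshold, overlap, number of peaks, libraries, pseudocount, filter and normalization.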

Additional observations from a re-analysis of the deposited data

Results flagged for a closer look

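Chromosome X lay outside the calls because the list of TGFB1 replicate 2 has no X peaks. In the other libraries the merged X regions numbered 966. Of these, 14 (1.45%) had a peak in both TGFB1 libraries with X peaks and in no vehicle library, and 8 (0.828%) had a peak in all 3 vehicle libraries and in neither of those TGFB1 libraries. Both counts ask for agreement of fewer libraries than the calls on chromosomes 1 to 19. The first asks for presence, and the second for absence, in fewer TGFB1 libraries, so neither is to be set beside those calls.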

How the results depend on the processing

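With equal numbers of peaks the gained and lost regions numbered 470 and 447, and with at least 2 of 3 libraries 3035 and 844. Leaving out each library gave 969 to 2036 gained and 294 to 608 lost regions, since fewer libraries then had to be alike. Score thresholds of 2 or 5, an overlap of 300 bp and merging all 18 lists gave 692 to 857 gained and 175 to 219 lost. At a score of at least 5, however, 336 of the 812 gained and 55 of the 196 lost regions kept their call. The gained share at D11 reversed to −1.31 points without vehicle replicate 3 of the D7 non-IR lists and to −5.36 without D11 vehicle replicate 3 (12 leave-outs, −5.36 to 11.9). At a score of at least 5 it was 0.819. The cause was not tested. The difference in peaks per library, 4262, ran from 1027.5 (without TGFB1 replicate 1) to 6451.5 in the leave-outs. The other shares kept their sign in all 12, at 6.86 to 17.2 (gained, D7 IR), −25.7 to −14.2 (lost, D7 IR) and −61.6 to −41.4 points (lost, D11). A rank shift of at least 10 points gave 1064 higher and 1083 lower regions, and of at least 30 points 228 and 194; leave-outs gave 890 to 980 and 836 to 935. The rank rule and its alternatives were chosen after seeing the data. The RNA fit with a replicate block called 7701 genes against 7732 without it. Same-numbered libraries deviated together weakly or not at all (correlations −0.029, 0.162 and 0.048), so the numbers were not read as pairs. Gene starts, linked genes and motifs were not run for want of the files' build. Depth was unknown, so an absent peak may be an uncalled one.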
